A study of Homo sapiens with 6 samples.

Results

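The genes described here were 10 cytokine and cytokine-response genes, the interleukin-1 family members IL1A, IL1B, IL1RN, IL18 and IL33, the IL-20 subfamily member IL24, the IL-6 type cytokines IL6, LIF and IL11, and TNFAIP6. They were chosen from 19775 measured genes because IL24, IL1A and TNFAIP6 were far higher on the array of siControl replicate 3 than on those of siControl replicates 1 and 2. The other 7 genes were taken as their relatives. Every probe set, a group of oligonucleotides that reports on a transcript, was used where the platform annotation gave it 1 of these symbols alone, which gave 18 probe sets. Because the signals of the control arrays chose the genes, the difference between those arrays is given below as a description without a test.

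The samples were cultures of SUM149, an established human cell line of inflammatory breast cancer, grown with insulin and hydrocortisone and transiently transfected with pooled siRNA at 200 nmol/L using oligofectamine. In the siControl group (3 arrays) the cells received siGENOME Non-Targeting siRNA, and in the siTIG1 group (3 arrays) an ON-TARGET Plus SMART pool against TIG1, now named RARRES1. The groups therefore differed in both the target and the product line of the siRNA, which cannot be told apart. Total RNA was hybridised to Affymetrix HG-U133 Plus arrays, and nothing in the labels says whether replicates were separate cultures, so the spread that p-values are measured against may be technical.

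IL-1 alpha and IL-1 beta are inflammatory cytokines that signal through the receptor IL1R1 with its accessory protein IL1RAP and the adaptor MYD88, whereas IL1RN encodes a secreted antagonist of that receptor. IL-18 and IL-33 use related receptors, IL-24 signals through receptors of the IL-20 family, and IL-6, LIF and IL-11 share the receptor subunit gp130, encoded by IL6ST. TNFAIP6 encodes TSG-6, a secreted protein induced by TNF and IL-1 that binds hyaluronan and modifies the hyaluronan matrix. Epithelial cells make several of these factors, IL-1 alpha, IL-18 and IL-33 among them, also outside an infection.

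The array of siControl replicate 3 stood apart over the whole table. It correlated at 0.985 with each of the other controls across probe sets, whereas all other pairs within a group correlated at 0.998 or above. RARRES1, the siRNA target, was higher on it by 1.11 to 1.66 on the log2 scale than on the other controls, depending on the probe set. The difference between the groups passed for none of its 3 probe sets (limma adjusted p of 0.20 to 0.27). Without siControl replicate 3 it was -0.75, -0.68 and -0.46 and passed for 2 of the 3 (limma adjusted p = 0.024, 0.043 and 0.16). The array labelled siTIG1 replicate 1 read 12.69 on probe set 221872_at, against 12.65 and 12.61 on siControl replicates 1 and 2. The 3' minus 5' signal of the ACTB control probe sets, which grows as RNA degrades, was 2.73, 2.62 and 3.21 on siControl replicates 1, 2 and 3 and lay between 2.14 and 2.34 in siTIG1. Most epithelial markers were high on all arrays, with 6 or 7 of 7 measured epithelial genes above the median gene level of 8.69. KRT14 lay below that level on siControl replicate 3 (7.77) and in siTIG1 (8.42 to 8.55). Of 6 leukocyte markers 1 or 2 lay above that level, of 6 fibroblast markers 1 and of 5 endothelial markers 2. No marker passed the test between the groups with all arrays (limma), where 7.29% of all genes did. Without siControl replicate 3, 2 epithelial markers fell, 3 rose and 1 leukocyte marker rose. In that comparison 14.8% of all genes fell and 12.2% rose.

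Promoter sequences, from RefSeq on build GRCh38.p14, are shown for the 3 genes that set the choice. Their shared excess on siControl replicate 3 is how they were chosen, and of the 3 only TNFAIP6 was also high on the siTIG1 arrays. Each is the 250 bases before an annotated transcription start, 5′ to 3′ on the gene's strand. Capitals mark the AP-1 motif TGANTCA, searched on both strands. The IL24 window is chr1:206897193-206897442 on the plus strand, the IL1A window chr2:112784494-112784743 on the minus strand and the TNFAIP6 window chr2:151357342-151357591 on the plus strand.
IL24: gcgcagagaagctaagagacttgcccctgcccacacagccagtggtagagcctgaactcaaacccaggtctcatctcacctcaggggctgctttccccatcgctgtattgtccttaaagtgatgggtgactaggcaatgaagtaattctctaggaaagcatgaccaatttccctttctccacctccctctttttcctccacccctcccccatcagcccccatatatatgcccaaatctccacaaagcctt
IL1A: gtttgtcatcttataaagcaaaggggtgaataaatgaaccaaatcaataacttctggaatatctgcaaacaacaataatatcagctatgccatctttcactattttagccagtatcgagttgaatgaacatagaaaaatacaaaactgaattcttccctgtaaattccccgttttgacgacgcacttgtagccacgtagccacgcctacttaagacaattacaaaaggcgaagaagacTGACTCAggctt
TNFAIP6: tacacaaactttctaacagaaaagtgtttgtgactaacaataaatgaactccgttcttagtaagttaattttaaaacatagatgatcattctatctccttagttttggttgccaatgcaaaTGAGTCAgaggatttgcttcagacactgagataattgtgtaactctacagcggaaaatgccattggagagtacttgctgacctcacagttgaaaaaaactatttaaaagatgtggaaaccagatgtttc
The printed IL1A window held the AP-1 motif beginning 12 bases before the start, and that of TNFAIP6 held it beginning 129 bases before, while these letters were not in the IL24 window. Windows of 300 bases, which add 50 bases after the start, were listed for 8 of the 10 genes, all but IL18 and LIF. Among these, IL1A, TNFAIP6, IL11 and 1 start of IL1RN held TGANTCA. Counted by window, 5 of the 12 windows of these genes held it, beside 7.71% of all 35116 windows, and these shares were not compared by a test. The windows of IL1A, which has more than 1 listed start, overlap, so the same motif letters were counted more than once. A match is a description of the letters and was not tested as a binding site.

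IL24 encodes a secreted cytokine that signals through STAT3 and was first known as a melanoma differentiation gene. It read 8.21, 8.08 and 13.12 on siControl replicates 1, 2 and 3, and 8.11, 8.06 and 8.07 on the siTIG1 arrays. A lone array was thus high, and the other 5 lay within 0.15 of each other. Replicate 3 was 4.98 on the log2 scale above the mean of the other controls, or 31.6-fold, which ranked 1 among the 19775 genes. The low signals are not shown to lie above background, since the deposited values carry no detection call, so this fold may be too small. The group difference was -1.73 ± 1.33 (SE) on the log2 scale and did not pass (limma adjusted p = 0.52). With siControl replicate 3 left out it was -0.07 ± 0.06 (SE, limma adjusted p = 0.45).

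IL1A followed the same course on its brighter probe set, 210118_s_at. Signals were 8.41, 8.48 and 12.38 on siControl replicates 1, 2 and 3, and 8.24, 7.68 and 7.94 on the siTIG1 arrays. Every siTIG1 array lay below every control, and siControl replicate 3 was 15.3-fold above the mean of the other controls, rank 3 of all genes. The other IL1A probe set, 208200_at, did not show this. It read 7.25, 7.38 and 7.19 on the controls and 7.20, 6.96 and 7.38 on the siTIG1 arrays, so that siControl replicate 3 was its lowest control. Both probe sets carry the IL1A symbol alone. Why they disagree was not tested, and the IL1A result rests on 210118_s_at.

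TNFAIP6 was high on siControl replicate 3 as IL24 and IL1A were, but it was also high on all siTIG1 arrays. Probe set 206025_s_at read 7.57, 7.85 and 11.51 on siControl replicates 1, 2 and 3, and 11.00, 10.62 and 10.71 on the siTIG1 arrays. Probe set 206026_s_at read 7.71, 7.62 and 11.23, and 10.94, 10.49 and 10.68. On both probe sets 4 arrays were high and only siControl replicates 1 and 2 were low, so the groups overlapped. The group means were 8.98 ± 2.20 and 10.78 ± 0.20 (SD, n = 3 each), a log2 difference of 1.80 ± 1.02 (SE) that missed the threshold (limma adjusted p = 0.37). With siControl replicate 3 left out the difference was 3.07 ± 0.11 (SE, limma adjusted p = 7.1e-07), or 8.38-fold higher in siTIG1, and it ranked 2 of the 19775 genes. The low signals on siControl replicates 1 and 2 were part of why TNFAIP6 was chosen, so this p and rank are descriptive only. On siControl replicate 3 TNFAIP6 lay 0.51 above the highest siTIG1 array.

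**Figure D1:**
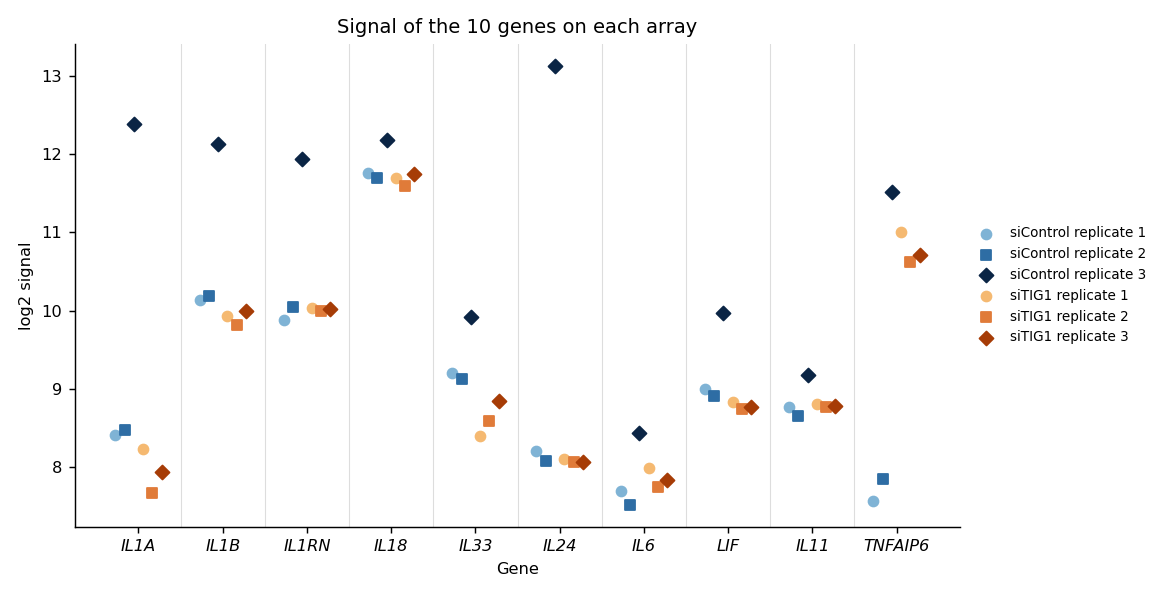
The log2 signal of the probe set that represents each of the 10 genes (horizontal axis) is plotted for all 6 arrays, blue for siControl and orange for siTIG1, with a marker for each replicate. The dark diamond of siControl replicate 3 is the highest point of every gene, and for TNFAIP6 the siTIG1 arrays (10.62 to 11.00) lie far above siControl replicates 1 and 2 (7.57 and 7.85).

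IL1B and the receptor antagonist IL1RN were both higher on siControl replicate 3 than on the other controls, and by a like amount on their brightest probe sets. IL1B (205067_at) read 10.13, 10.19 and 12.13 on the controls and 9.93, 9.81 and 9.997 on the siTIG1 arrays, and IL1B probe set 39402_at read 9.58, 9.61 and 12.08, and 9.12, 9.08 and 9.26. All siTIG1 arrays lay below all controls on both, and siControl replicate 3 was 1.97 and 2.49 above the other controls on the log2 scale. IL1RN (212657_s_at) read 9.88, 10.05 and 11.93 on the controls and 10.04, 9.997 and 10.02 on the siTIG1 arrays, 3.92-fold higher on replicate 3 than on the other controls. Its other probe sets differed: siControl replicate 3 lay 0.74 above the other controls on 212659_s_at but only 0.01 to 0.16 above on 216243_s_at, 216244_at and 216245_at. The last 2 were dim, between 5.07 and 6.96 on all arrays.

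IL18 and IL33, which encode cytokines that epithelial cells hold ready, differed less between arrays. IL18 read 11.76, 11.70 and 12.18 on the controls and 11.69, 11.59 and 11.75 on the siTIG1 arrays, and its groups overlapped. IL33, an alarmin stored in the nucleus, read 9.21, 9.13 and 9.92 on the controls and 8.40, 8.59 and 8.85 on the siTIG1 arrays. The siTIG1 arrays of IL33 all lay below the controls, by at least 0.28 between the nearest arrays. The IL33 difference of -0.81 ± 0.23 (SE) had an unadjusted limma p of 0.012 and missed the threshold after adjustment (limma adjusted p = 0.10). That p was the only one under 0.05 among the probe sets that represent the 10 genes. A further IL1RN probe set, 216243_s_at, had a difference of -0.27 with an unadjusted limma p of 0.0032. It also missed the threshold (limma adjusted p = 0.058 over every probe set).

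The IL-6 type cytokines differed little between the arrays other than siControl replicate 3. IL6, the founding member, read 7.69, 7.52 and 8.44 on the controls and 7.99, 7.75 and 7.83 on the siTIG1 arrays. LIF, the leukemia inhibitory factor, read 9.001, 8.91 and 9.97, and 8.84, 8.74 and 8.77. Signals of IL6 were thus between the low and the high controls in siTIG1, and those of LIF below all controls. IL11 read 8.77, 8.66 and 9.18, and 8.81, 8.77 and 8.78 on its brighter probe set, 206926_s_at. Its other probe set, 206924_at, read 8.08, 8.01 and 9.40 on the controls and 7.90, 7.95 and 7.70 on the siTIG1 arrays, so the excess on siControl replicate 3 was 1.36 there and 0.47 on the first.

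**Figure D2:**
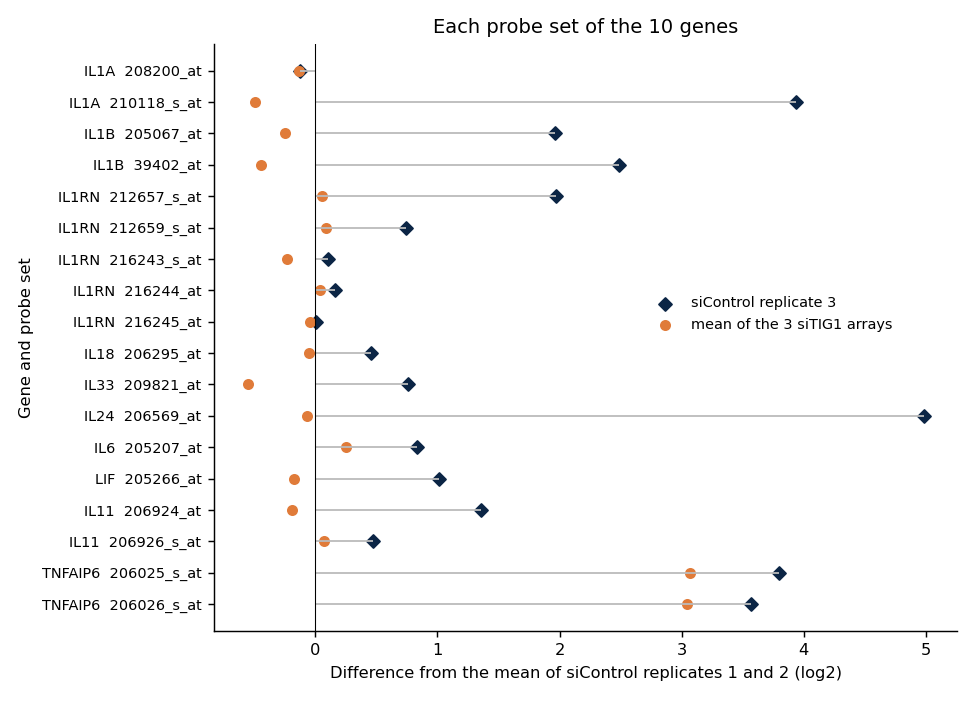
For each of the 18 probe sets, the dark diamond gives the log2 difference of siControl replicate 3, and the orange point that of the mean of 3 siTIG1 arrays, from the mean of siControl replicates 1 and 2. Both TNFAIP6 probe sets have both points above 3, the IL1A probe sets disagree, and 9 of 18 probe sets have a diamond at 1 or above.

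Over the 10 genes, siControl replicate 3 gave the highest signal of the 6 arrays for all 10, as it did for 31.5% of all genes, and lay at least 1 log2 unit above the mean of the other controls for 6, as for 1.55% of all genes. These counts follow from how the genes were chosen and are not evidence of anything further. LIF (1.01) was the lowest of the 6, and IL6 (0.83) the highest of the rest, followed by IL33 (0.76), IL11 (0.47) and IL18 (0.46).

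Between siTIG1 and siControl none of the 10 genes passed the test with all arrays (limma, adjusted p under 0.05 over all genes), where 7.29% of all genes did (3.16% higher, 4.14% lower), nor did any of the 18 probe sets (5.01% of all probe sets). The median difference of the 10 was -0.56 on the log2 scale, and -0.06 without siControl replicate 3. All 3 siTIG1 arrays lay below all controls for 4 genes, IL1A, IL1B, IL33 and LIF, against 15.3% of all genes, and above for none, against 16.6% (31.8% in either direction). The standard errors of IL24, IL1A and TNFAIP6 were 1.33, 1.06 and 1.02, against 0.06, 0.13 and 0.11 without siControl replicate 3. With the larger standard errors, not passing does not show that the groups were alike.

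Without siControl replicate 3, 6 of the 10 genes passed, where 27.1% of all genes did, in a comparison of 2 control with 3 siTIG1 arrays. TNFAIP6 and IL6 were higher (12.2% of all genes) and IL33, IL1A, IL1B and LIF lower (14.8%). After TNFAIP6 the differences were small. IL33 fell by 0.55 ± 0.11 (SE, limma adjusted p = 0.0046), IL1A by 0.50 ± 0.13 (SE, limma adjusted p = 0.019) and IL1B by 0.25 ± 0.06 (SE, limma adjusted p = 0.019). IL6 rose by 0.25 ± 0.08 (SE, limma adjusted p = 0.042), against -0.02 with all arrays, and LIF fell by 0.18 ± 0.06 (SE, limma adjusted p = 0.048). The calls of IL6 and LIF were lost when p was adjusted over every probe set (limma adjusted p of 0.065 and 0.077), where 18.9% of all probe sets passed and 7 of the 18 did. IL24, IL1RN, IL18 and IL11 did not pass, with differences of -0.07, 0.05, -0.05 and 0.07 on the probe sets that represent them. IL1RN was not uniform, since its probe set 216243_s_at had a difference of -0.24 and passed over every probe set (limma adjusted p = 0.022). No gene of the 10 passed when any other single array was left out. The array was left out because it stood apart, and the genes were chosen for it, so this comparison does not replace that of all arrays.

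**Figure D3:**
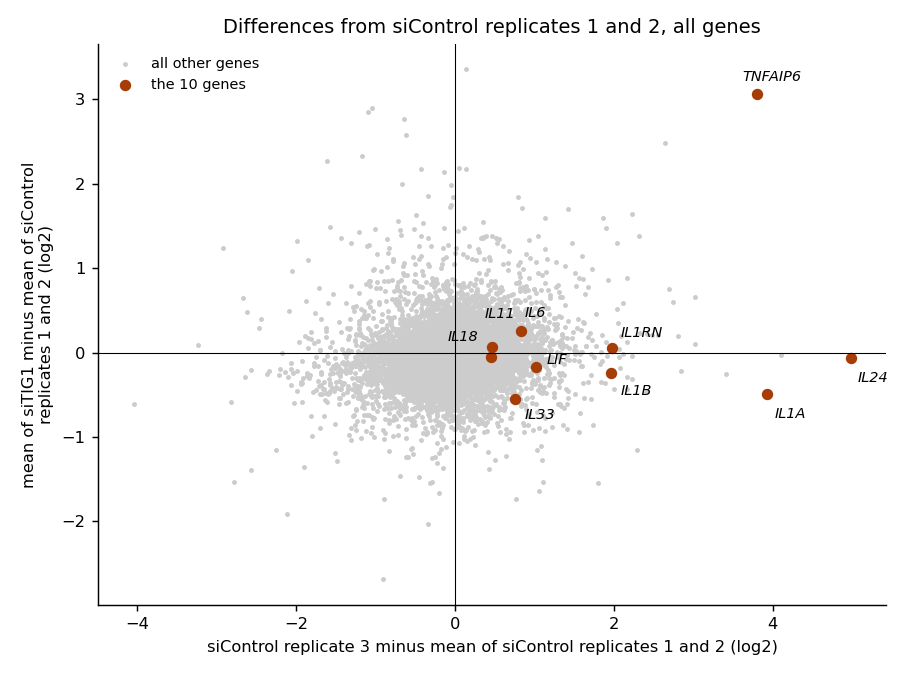
Each point is a gene; the horizontal axis gives the log2 difference of siControl replicate 3, and the vertical axis that of the siTIG1 mean, from the mean of siControl replicates 1 and 2, which both axes share. TNFAIP6 stands alone at the upper right (3.80 and 3.07), while IL24 and IL1A lie far right near or below 0 on the vertical axis (-0.07 and -0.50).

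The receptors and partners of these cytokines were taken from lists of related genes. With all arrays, 7.29% of all genes passed (3.16% higher, 4.14% lower), beside which the count of each list stands. Among 10 IL-1 family receptors and decoys, IL1RAP and SIGIRR fell and 8 did not pass (median difference -0.01). IL1RAP, the accessory chain needed for signalling by IL-1 and IL-33, read 10.71, 10.76 and 10.78 on the controls and 9.95, 9.83 and 9.97 on the siTIG1 arrays. The groups were well apart, siControl replicate 3 was no exception, and the log2 difference was -0.84 ± 0.06 (SE, limma adjusted p = 0.0024), 1.78-fold lower in siTIG1. Both IL1RAP probe sets passed, and the call held whichever array was removed (highest limma adjusted p 0.026). SIGIRR, an inhibitory receptor of the family, fell by 0.52 ± 0.09 (SE, limma adjusted p = 0.021). That call was lost with the mean of its probe sets (0.059) or the replicate number as a block (0.079). It was also lost without any 1 array other than siControl replicate 3 (0.050 to 0.11).

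The receptor IL1R1 and the decoy IL1R2, which binds IL-1 without signalling, had differences of opposite sign that did not pass. IL1R1 read 8.61, 8.70 and 7.91 on the controls and 9.28, 9.23 and 9.24 on the siTIG1 arrays, a difference of 0.84 ± 0.21 (SE, limma adjusted p = 0.065). IL1R2 read 9.98, 9.99 and 8.50 on the controls and 8.50, 8.79 and 8.82 on the siTIG1 arrays. For IL1R2 siControl replicate 3 lay with the siTIG1 arrays, as it did for TNFAIP6 in the other direction, and the group difference was -0.79 ± 0.41 (SE, limma adjusted p = 0.33). Without that array IL1R1 rose by 0.59 and IL1R2 fell by 1.29 (limma adjusted p = 6.0e-05 and 1.4e-05). The second IL1R1 probe set did not have that sign without the array. In this setting 1 gene of the list rose and 3 fell, where 12.2% of all genes rose and 14.8% fell.

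Of 10 measured IL-1 receptor adaptors and kinases MYD88 rose and 9 did not pass (median -0.0049). MYD88, the adaptor of IL-1 and Toll-like receptors, read 11.65, 11.67 and 11.83 on the controls and 12.28, 12.14 and 12.17 on the siTIG1 arrays. This was a rise of 0.48 ± 0.07 (SE, limma adjusted p = 0.016). The call was lost without any 1 array other than siControl replicate 3 (0.062 to 0.084) and with the replicate number as a block (0.080). IRAK2, a kinase of the same complex, read 8.49, 8.61 and 10.03 on the controls and between 8.75 and 8.85 in siTIG1. On the probe set that represents it, it was thus high on siControl replicate 3 alone. Its 3 probe sets had group differences from -0.25 to 0.01, and without siControl replicate 3 only 1 of them passed over every probe set. IRAK1 was at -0.21 ± 0.05 (SE, limma adjusted p = 0.062). With siControl replicate 3 left out, 3 genes of this list rose and 1 fell, where 12.2% of all genes rose and 14.8% fell.

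Among 11 inflammatory caspases and inflammasome genes, which include the machinery that matures IL-1 beta and IL-18, PYCARD rose and 10 did not pass (median 0.05). PYCARD, the inflammasome adaptor ASC, rose by 0.62 ± 0.10 (SE, limma adjusted p = 0.019). That call was lost without any 1 of the arrays other than siControl replicates 1 and 3 (0.054 to 0.10). It was also lost with the replicate number as a block (0.061). CASP1, the caspase that cleaves these cytokines, was at 0.29 ± 0.07 (SE, limma adjusted p = 0.054) from a dim control signal of 6.12 to 6.30, and CARD8 at 0.22 ± 0.18 (SE, limma adjusted p = 0.56). Leaving out siControl replicate 3, 3 rose and none fell, where 12.2% of all genes rose and 14.8% fell.

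None of the 6 other IL-1 family ligands passed with all arrays (median 0.04) or without siControl replicate 3, where 7.29% and 27.1% of all genes did. The lowest limma p among them with all arrays, that of IL36RN, gave an adjusted p of 0.16. At an unadjusted limma p under 0.05 there was 1, as there were 4323 of all 19775 genes. Several of these genes lie beside the members: on chromosome 2, RefSeq orders IL1A, IL1B, IL37 and IL36G next to each other, and IL1F10 next to IL1RN. Unlike IL1A and IL1B, IL37 read 6.27, 6.10 and 6.24 on the controls and IL36G 6.72, 6.71 and 6.65, and all 6 ligands lay between 0.07 below and 0.21 above the other controls on siControl replicate 3. Whether these low signals exceed background is not known.

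In the gene order of chromosome 1, IL19 and IL20 precede IL24. IL20, a cytokine that shares receptors with IL-24, read 7.21, 7.46 and 9.29 on the controls and 7.45, 7.41 and 7.31 on the siTIG1 arrays. It was high on siControl replicate 3 alone, as IL24 was, by 1.96 on the log2 scale, whereas IL19 read 8.26, 8.26 and 8.27 on the controls and between 8.24 and 8.33 in siTIG1. Of 10 IL-10 and IL-20 family ligands and receptors IL10RB, a receptor chain shared by several of these cytokines, rose by 0.43 ± 0.07 (SE, limma adjusted p = 0.019), and 9 did not pass (median -0.02). Removing an array other than siControl replicate 3 ended that call (0.055 to 0.11), as did the replicate number as a block (0.076). IL20RA was at -0.80 ± 0.24 (SE, limma adjusted p = 0.11). Of the receptor chains for IL-24, IL20RB, named here after its values were seen, read 10.30, 10.45 and 11.93 on the controls and 11.37, 11.21 and 11.18 on the siTIG1 arrays, so that siControl replicates 1 and 2 were the low arrays. In the comparison without siControl replicate 3, 2 of the list rose and 1 fell, where 12.2% of all genes rose and 14.8% fell.

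Of 12 measured other IL-6 type ligands and receptors 11 did not pass and IL6ST, the shared receptor subunit gp130, rose (median 0.06). IL6ST read 11.71, 11.74 and 11.78 on the controls and 11.999, 12.18 and 12.13 on the siTIG1 arrays, a difference of 0.36 ± 0.06 (SE, limma adjusted p = 0.026). All 7 of its probe sets had this sign and 1 passed. The call was lost as the mean of its probe sets (0.16) and with the replicate number as a block (0.088). It was also lost without siControl replicate 1 or 2 or siTIG1 replicate 2 or 3 (0.088 to 0.13). IL6R was at -0.17 ± 0.13 (SE) and CTF1 at -0.16 ± 0.08 (SE). Without siControl replicate 3 the list also had 1 rise and no fall, where 12.2% of all genes rose and 14.8% fell.

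TSG-6, the product of TNFAIP6, acts on hyaluronan, and among 13 measured hyaluronan matrix genes HAS2 rose, CD44 fell and 11 did not pass (median 0.02). HAS2, a hyaluronan synthase, read 10.70, 10.58 and 10.47 on the controls and 11.41, 11.00 and 11.04 on the siTIG1 arrays, a rise of 0.56 ± 0.12 (SE) close to the threshold (limma adjusted p = 0.049). That call was lost with median centring (0.052), trended robust moderation (0.060), the mean of its probe sets (0.062) or adjustment over every probe set (0.055), and without any 1 array other than siControl replicate 3 (0.085 to 0.14). CD44, a hyaluronan receptor, read 13.55, 13.54 and 13.17, and 12.49, 12.63 and 12.64, a fall of 0.84 ± 0.12 (SE, limma adjusted p = 0.013). Of 13 CD44 probe sets 11 had this sign and 1 passed, and the mean of its probe sets gave -0.28 (limma adjusted p = 0.23). The CD44 call was also lost without siControl replicate 2 or any 1 siTIG1 array (0.053 to 0.072). VCAN, a proteoglycan that binds hyaluronan, was at 0.48 ± 0.12 (SE, limma adjusted p = 0.073) and HAS3 at -0.22 ± 0.07 (SE, limma adjusted p = 0.13). Without siControl replicate 3, 3 rose and 2 fell, where 12.2% of all genes rose and 14.8% fell.

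**Figure D4:**
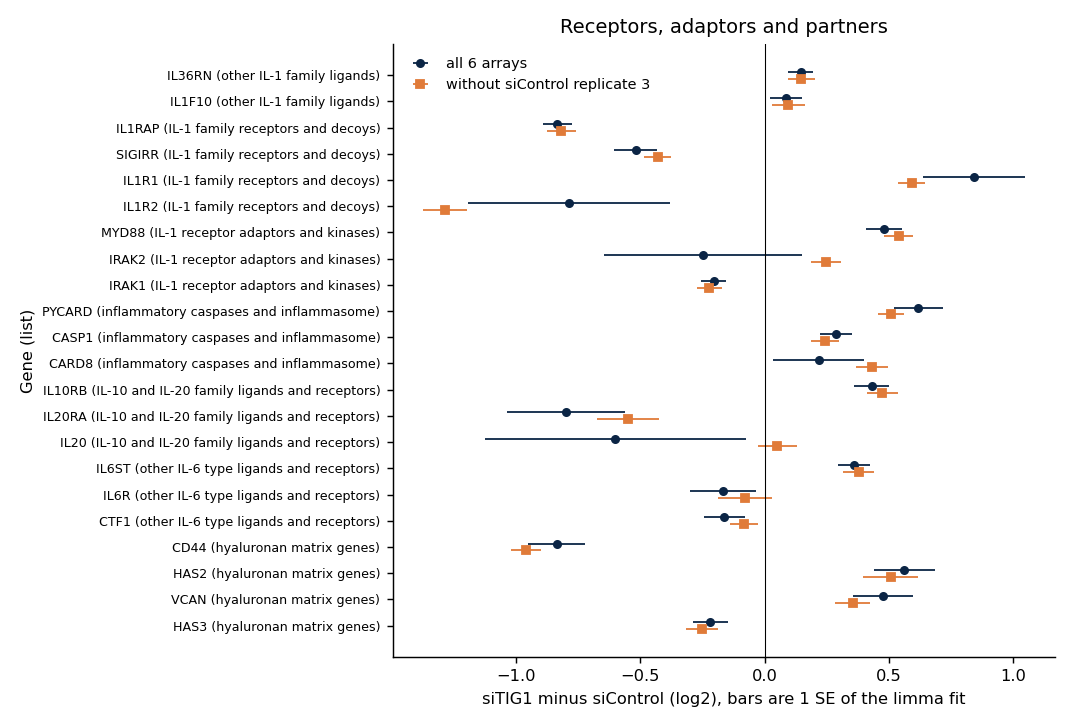
The log2 difference between siTIG1 and siControl is plotted for the named receptors, adaptors and partners with 1 SE of the limma fit, circles for all 6 arrays and squares without siControl replicate 3. IL1RAP lies near -0.8 in both, whereas IL1R2 moves from -0.79 to -1.29 and IRAK2 from -0.25 to 0.25.

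Genes with the array profile nearest to IL24, IL1A and TNFAIP6 were found by the root mean square (RMS) difference of log2 signals over the 6 arrays, each gene centred on its mean. This measure is set mostly by the few arrays that stand apart. For IL24 the nearest was CLGN, a chaperone of the endoplasmic reticulum (RMS 0.37), then IL1A (0.39), the calcium-binding protein CALB1 (0.56), LURAP1L-AS1 and the transcription factor SP8 (0.78 each). For IL1A they were CLGN (0.24), CALB1 (0.35), IL24 (0.39), SP8 (0.48) and the phosphatase DUSP6 (0.55). IL24 and IL1A were among each other's nearest 5 of all 19775 genes, whereas TNFAIP6 was in neither list. Both were chosen for their excess on siControl replicate 3, so their closeness follows largely from that choice and is not evidence of a link. CLGN read 7.17, 7.07 and 11.22 on the controls and 7.39, 6.98 and 6.88 on the siTIG1 arrays.

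For TNFAIP6 the nearest were DCLK1, a kinase (RMS 0.41), LURAP1L (0.73), the growth factor BMP2 (0.78), the phosphatase DUSP1 (0.80) and the laminin-like NTN4 (0.81). DCLK1 read 8.20, 8.27 and 10.88 on the controls and 10.82, 10.65 and 10.68 on the siTIG1 arrays. BMP2 read 9.03, 9.02 and 10.89 on the controls and 10.66, 10.65 and 10.56 on the siTIG1 arrays. In both, as in TNFAIP6, siControl replicates 1 and 2 were the low arrays and the other 4 were high.

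**Figure D5:**
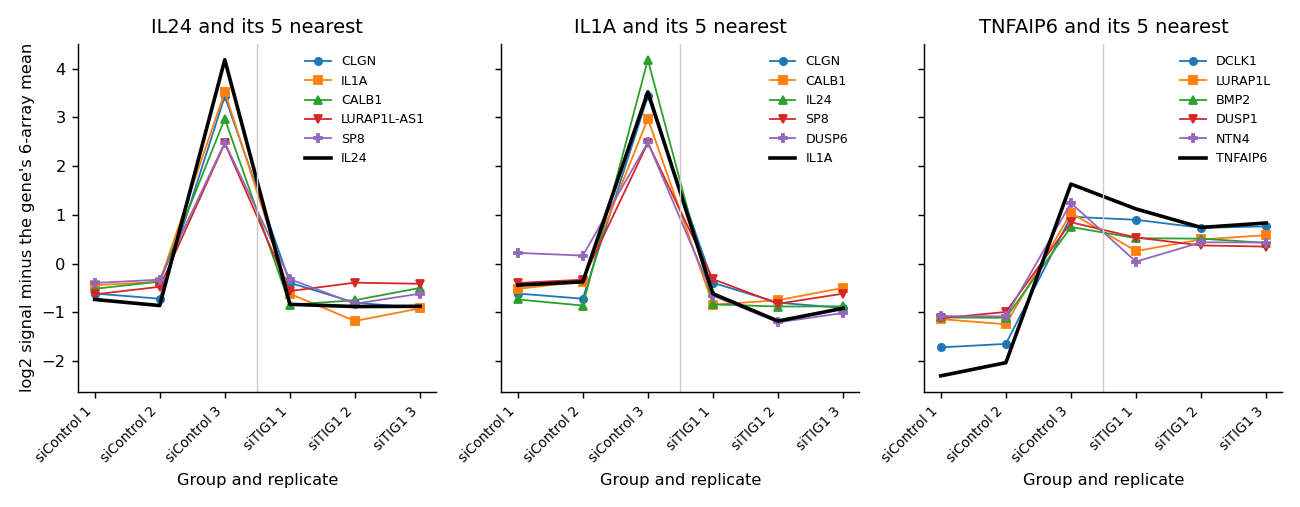
Log2 signals minus each gene's 6-array mean are drawn over the arrays for IL24, IL1A and TNFAIP6 (black) and the 5 genes nearest to each (coloured). Lines only join the arrays of a gene and imply no order. The panels of IL24 and IL1A peak at siControl replicate 3 alone, and that of TNFAIP6 is low only on siControl replicates 1 and 2.

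Other measures moved with these genes on siControl replicate 3. The ACTB 3' minus 5' signal was highest there, as given above, and so was that of GAPDH (0.57, against 0.46 to 0.48 on the other arrays). The summed log2 level of the 6 measured leukocyte markers was 45.8 to 47.2 on the controls, highest on siControl replicate 3, and 46.6 to 47.2 on the siTIG1 arrays. On that array CD14 lay 1.30 above the other controls, and the other 5 markers lay between 0.12 below (CD2) and 0.09 above (CD3E), with CSF1R and ITGAX also below. PTPRC, which encodes the leukocyte antigen CD45, was low on every array (6.55 to 6.77). CD14, a lipopolysaccharide co-receptor named here after its values were seen, read 7.67, 7.62 and 8.95 on the controls and 8.48, 8.48 and 8.37 on the siTIG1 arrays. The summed level of 6 fibroblast markers was 47.1 to 48.4 on the controls, again highest on siControl replicate 3, and 47.5 to 47.9 on the siTIG1 arrays, with COL1A1 0.48 above the other controls on that array. Of the epithelial markers EGFR lay 1.74 and CDH1 0.91 above the other controls there, and KRT14 was at -1.05 against them, while the summed level of the 7 was 87.5 to 87.9 on the controls and 86.8 to 87.3 on the siTIG1 arrays. That of 5 endothelial markers was 38.9 to 39.3 on the controls and 39.3 to 39.5 on the siTIG1 arrays. The part of these in the results was not tested. In bulk RNA, a change in the number of cells that make a transcript and a change in transcript per cell cannot be told apart.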

How the data were processed

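Values were taken from the deposited table, with log2 signals of 54675 probe sets on each array. The log base is not written there and was taken as 2 from the span of the values (4.28 to 15.59). The submitters' processing notes name MAS5 and RMA. Not given in the sources used here: which of them produced the table. Sorted values differed between arrays by 0.093 or less, so the authors had normalized them, and they were used as deposited. Such normalization hides a shift of most genes one way.

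Of 54613 probe sets other than controls, 41091 had 1 gene symbol in the platform annotation, 1801 several and 11721 none listed. Symbols were updated through gene numbers against RefSeq (GRCh38.p14). Each of 19775 genes was represented by its probe set with the highest mean, x_at sets only where there was no other. No gene was filtered out, so all 10 members were tested.

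Groups and replicate numbers came from the sample titles. The comparison used lmFit and eBayes of limma 3.58.1 under R 4.3.3 (2-sided, no block), with Benjamini-Hochberg adjustment over all genes and a threshold of 0.05. The number of arrays limits the precision. Differences are siTIG1 minus siControl unless another is named. The fit was tested on simulated data. Named genes were all members, up to 4 genes past the threshold by p and up to 2 others by size from each of 7 lists, and the 5 nearest profiles. Members and lists were chosen with earlier results of these data known. Alternatives were array weights, a replicate block, leaving out each array, trended robust moderation, every probe set, means over probe sets, removal of dim genes, and quantile or median scaling. Figures were drawn with matplotlib 3.10.9.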

Additional observations from a re-analysis of the deposited data

How the results depend on the processing

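No member passed in 7 alternatives that kept all arrays, and with array weights, which gave siControl replicate 3 a weight of 0.10, 1 was higher (TNFAIP6) and 1 lower (IL33). With 1 array left out, 0 to 2 members were higher and 0 to 4 lower, all of them without siControl replicate 3. In that setting IL6 and IRAK2 changed sign and passed, and IL1RN, IL11 and IL20 changed sign without passing (0.05, 0.07 and 0.05). Over the arrays left out, IL6 ran from -0.21 to 0.25 and IRAK2 from -0.53 to 0.25 on the log2 scale. The 624 higher and 818 lower genes became 2392 and 2717 with array weights, 1171 and 1566 over every probe set, 101 to 2421 and 116 to 2936 with 1 array left out, and 108 and 137 with the replicate number as a block. Deviations of same-numbered arrays from their group means correlated at -0.08, 0.02 and -0.04. In the controls siControl replicate 3 set most of these deviations, so such low values cannot exclude that the numbers pair the arrays. No member was called with the block. The count of members at least 1 higher on siControl replicate 3 went from 6 to 5 under quantile normalization and with the mean of probe sets, which lowered the excess of IL1RN to 0.60 and raised that of IL11 to 0.91. The number of arrays and the unknown background of low signals limit all of these.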
